A study of Mus musculus with 3 samples.

Results

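A set of 9 genes of the insulin and FoxO pathway was followed through an Ets-1 ChIP-seq experiment in Min6 cells, a mouse insulinoma line that secretes insulin. The 9 genes were the receptors Insr and Igf1r, the adaptors Irs1 and Irs2, the kinases Akt1 and Akt2, the growth brake Tsc2 and the transcription factors Foxo1 and Foxo3. Every region whose nearest gene, as the authors assigned it, was one of these 9 was taken, which gave 150 of 543367 regions and 9 of 19054 named genes. The list of peaks called in Ad-Ets-1 cells held 63 peaks of these genes among 237322, and the list called in Ad-GFP cells held 103 among 339856.

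Min6 cells in medium with 25 mM glucose were infected for 24 h with an adenovirus that overexpresses Ets-1 (Ad-Ets-1) or with a control adenovirus that carries GFP (Ad-GFP). Cells of all groups were crosslinked with 1% formaldehyde for 10 min. Chromatin of each infection was precipitated with an antibody against Ets-1, and no precipitation with a control antibody was analysed here. An input library of Min6 chromatin without precipitation was sequenced beside them, and the labels do not name its virus. Each group held 1 library. Differences between groups were therefore checked against counting error alone, and no p-value was computed. RNA and protein were not analysed here, so neither the level of Ets-1 nor β-cell markers could be set against the labels.

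The receptors for insulin and IGF1 are tyrosine kinases at the cell surface. They phosphorylate the adaptors Irs1 and Irs2, which recruit PI3-kinase, and the lipid it makes activates Akt1 and Akt2. Akt relieves the brake that Tsc2, with its partner Tsc1, puts on mTOR, and it sends FoxO factors out of the nucleus; in β-cells the Irs2 and Foxo1 branch is known for its role in cell mass and identity. Ets-1 is a transcription factor that recognises the DNA core GGAA within a longer preferred sequence.

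From the deposited counts the Ad-Ets-1 library held 1938473 reads, the Ad-GFP library 1775757 and the input library 3937472. At this depth most regions rest on a few reads. Of the 150 regions of the 9 genes, 126 (84.0%) held 2 or fewer reads in Ad-Ets-1 cells, 130 (86.7%) in Ad-GFP cells and 148 (98.7%) in the input. Over all regions these shares were 91.0% in Ad-Ets-1 cells, 89.3% in Ad-GFP cells and 99.9% in the input. Ratios are of reads scaled to the library totals. Their 95% intervals are exact conditional binomial intervals on fragments of 2 reads and cover counting error only, and reads copied by PCR are not independent molecules. Against 0 reads a ratio is given to a floor of 3 reads per library. Coordinates are those of mm10.

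Irs1 was the member with the best read regions. A pair of neighbouring regions over its coding sequence held 64 and 62 reads in Ad-Ets-1 cells, 57 and 22 in Ad-GFP cells and 18 and 10 in the input. Outside Irs1, no region of the other 8 genes held more than 7 reads in either precipitated library. Together the 150 regions held 312 reads in Ad-Ets-1 cells, 309 in Ad-GFP cells and 48 in the input. The 2 Irs1 regions alone supplied 40.4% of these reads in Ad-Ets-1 cells, 25.6% in Ad-GFP cells and 58.3% in the input. Their share was thus largest in the input.

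**Figure D1:**
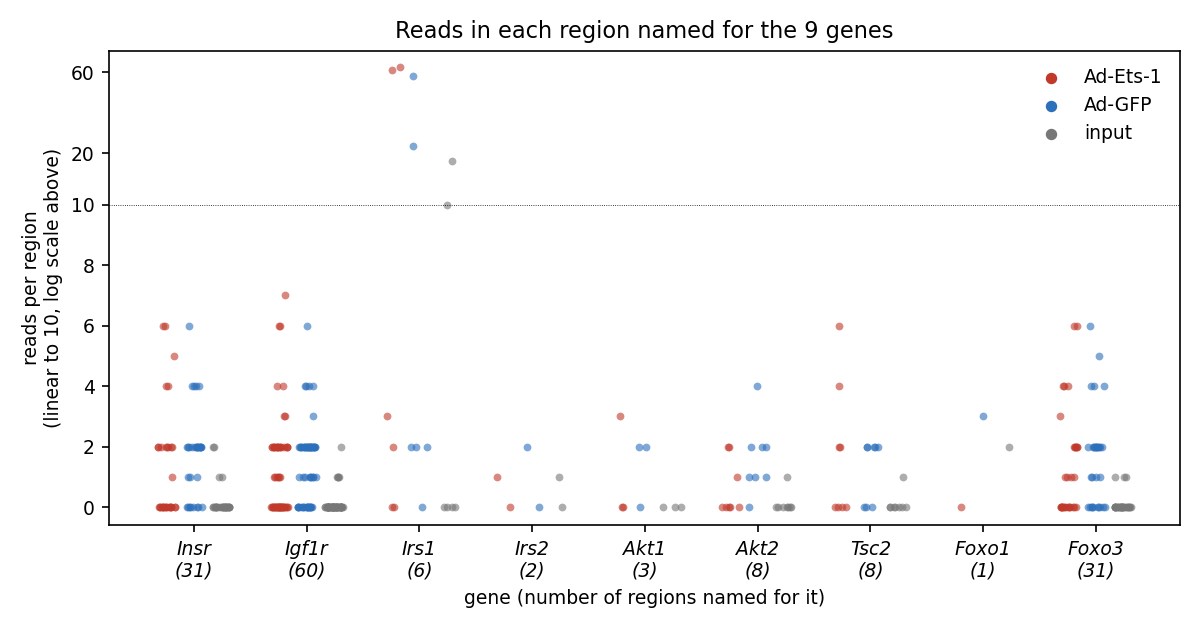
Reads (vertical axis, linear up to 10 and logarithmic above) in each region named for the 9 genes (horizontal axis, number of regions in brackets) in the Ad-Ets-1, Ad-GFP and input libraries, 1 point per region and library. Both Irs1 regions stand at 62 or more reads in Ad-Ets-1 cells at 57 and 22 in Ad-GFP cells and at 18 and 10 in the input, while every other point lies at 7 or below.

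Of the receptors, Insr, the insulin receptor (minus strand of chromosome 8, 3122061 to 3279617), had 31 regions, with 42 reads in Ad-Ets-1 cells, 55 in Ad-GFP cells and 6 in the input. Its best region in Ad-Ets-1 cells held 6 reads and its best in Ad-GFP cells also held 6. Its only peak with a deposited q of at most 0.05 lay in intergenic DNA upstream of the gene (chr8:3295922-3296244), 16305 to 16627 bp before the gene start. That region held 5 reads in Ad-Ets-1 cells, 0 in Ad-GFP cells and 0 in the input. In the authors' deposited table the peak had a fold of 3.71 over background and a q of 0.0289 in Ad-Ets-1 cells. A region labelled promoter held 6 reads in Ad-Ets-1 cells, 0 in Ad-GFP cells and 0 in the input. It lay 98688 bp inside the gene, near the start of a shorter transcript. A region labelled 3′ UTR, 125418 bp inside the gene, held 2 reads in Ad-Ets-1 cells, 6 in Ad-GFP cells and 0 in the input. Nothing was listed at the gene's own start.

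Igf1r, the receptor for IGF1 (plus strand of chromosome 7, 67952827 to 68233668), is the longest of the 9 genes and had the most regions. Its 60 regions made up 40.0% of the 150, beside 34.8% of the summed gene length, and 47 of them were intronic. They held 73 reads in Ad-Ets-1 cells, 86 in Ad-GFP cells and 6 in the input. The best read of them held 7 reads in Ad-Ets-1 cells, 2 in Ad-GFP cells and 1 in the input (chr7:68128963-68129273), a ratio of 3.21 with an interval of 0.363 to 180.5. Others held more reads in Ad-GFP cells, such as an intronic region with 0 reads in Ad-Ets-1 cells and 6 in Ad-GFP cells (chr7:68158455-68158862). Its 3 regions labelled promoter held at most 2 reads and lay 239632 to 258302 bp inside the gene.

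The adaptor Irs1 (minus strand of chromosome 1, 82233101 to 82291416) couples the receptors to PI3-kinase. Its whole coding sequence of 3693 bp lies in the first of 2 exons. Of its 6 regions, the 4 intronic ones held at most 3 reads in Ad-Ets-1 cells and at most 2 in Ad-GFP cells. The region labelled promoter (chr1:82289782-82290494) is 713 bp wide and lay 922 to 1634 bp downstream of the gene start. All but 1 of its bases are coding: it ends 1 bp before the start codon and runs into the gene from there. The first 300 coding bases, which this region holds, are shown with the start codon in capitals. They come from the mm10 genome and read along the gene, on the minus strand.
Irs1 coding start (chr1:82290194-82290493, minus strand): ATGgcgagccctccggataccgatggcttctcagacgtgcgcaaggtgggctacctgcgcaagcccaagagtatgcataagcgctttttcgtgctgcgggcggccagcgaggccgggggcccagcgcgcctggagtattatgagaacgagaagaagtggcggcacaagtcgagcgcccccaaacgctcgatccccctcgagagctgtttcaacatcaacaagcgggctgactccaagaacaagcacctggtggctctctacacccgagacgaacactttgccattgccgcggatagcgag
This stretch holds 0 GGAA cores on either strand, and the whole region holds 1. That is 1.40 cores per kb, against 10.9 per kb over all regions placed on the genome sequence.

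This promoter-labelled region held 64 reads in Ad-Ets-1 cells, 57 in Ad-GFP cells and 18 in the input. The Ad-Ets-1 to Ad-GFP ratio was 1.03, with an interval of 0.592 to 1.73 that spans 1. Over input the signal was 7.22-fold (3.37 to 17.2) in Ad-Ets-1 cells and 7.02-fold (3.29 to 17.2) in Ad-GFP cells. Both precipitated libraries stood above the input by more than counting error, and by like amounts. Regions were listed because a peak was called in a precipitated library, so any fold over input is partly set by that choice. All named regions outside satellite held 4.09 reads per kb in Ad-Ets-1 cells, 5.27 in Ad-GFP cells and 0.401 in the input. These densities are not scaled to the library totals. Between the input and either precipitated library they rose by a larger factor than the reads of this Irs1 region did. Among the 211057 named regions placed on the genome sequence, the promoter-labelled Irs1 region ranked 47th by reads in Ad-Ets-1 cells and 55th in Ad-GFP cells. It ranked 60th in the input, so its place was high in the input as well. In the authors' deposited table its peak had a fold of 7.46 in Ad-Ets-1 cells, at −log10 q of 7.18. The Ad-GFP list gave it a pair of summits with folds of 7.23 and 6.42, at −log10 q of 7.51 and 4.90.

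A second Irs1 region, labelled exon (chr1:82288333-82288954), is 622 bp wide and lies entirely in coding sequence, 827 bp further into the gene. It held 62 reads in Ad-Ets-1 cells, 22 in Ad-GFP cells and 10 in the input. Here the Ad-Ets-1 library was higher: the ratio to Ad-GFP was 2.58, with an interval of 1.26 to 5.69. Over input the signal was 12.6-fold (4.85 to 41.5) in Ad-Ets-1 cells and 4.88-fold (1.56 to 17.9) in Ad-GFP cells. The ratio in the exon region was 2.53 times that in the promoter-labelled region (conditional odds ratio on fragments, interval 1.01 to 6.65). Both the exon ratio and this contrast were chosen after the values were seen and are descriptions. Whether a difference of this size would recur in another pair of libraries is not known from 1 library each. By Ad-Ets-1 reads this region was the 4th of 8168 exon regions of named genes, and by Ad-GFP reads the 9th. Among the 211057 named regions of any class it ranked 48th in Ad-Ets-1 cells, 91st in Ad-GFP cells and 81st in the input. The authors' deposited table gave it a fold of 5.44 in Ad-Ets-1 cells, at −log10 q of 4.39, and of 4.72 in Ad-GFP cells, at −log10 q of 1.61. It holds 7 GGAA cores, or 11.3 per kb. The 200 bases at its middle are shown with their 2 GGAA cores on this strand in capitals.
Irs1 exon region, middle (chr1:82288544-82288743, minus strand): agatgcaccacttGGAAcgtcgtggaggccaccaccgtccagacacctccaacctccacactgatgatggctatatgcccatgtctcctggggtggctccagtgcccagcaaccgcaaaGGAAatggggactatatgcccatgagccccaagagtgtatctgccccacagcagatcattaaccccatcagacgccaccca

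**Figure D2:**
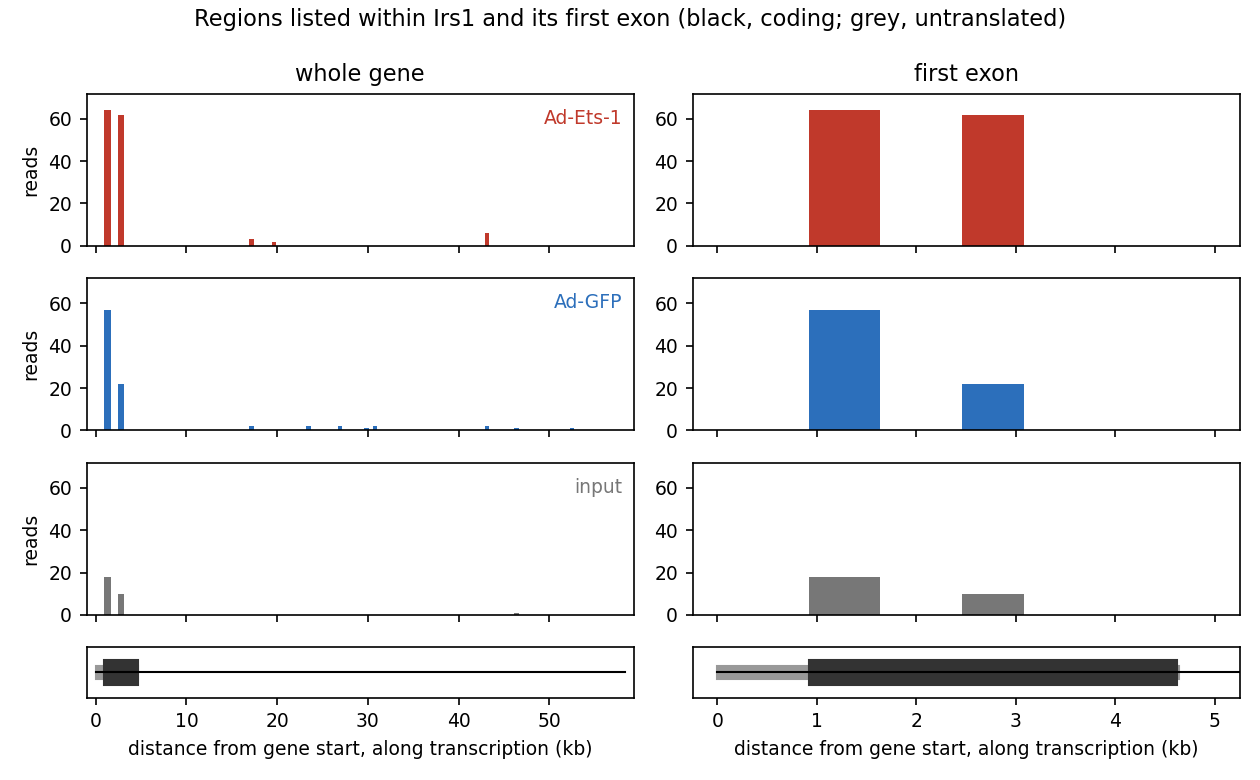
Reads (vertical axes) in the regions listed within Irs1 against distance from the gene start along transcription in kb (horizontal axes), for the Ad-Ets-1, Ad-GFP and input libraries, over the whole gene at left, where narrow bars are widened to be seen, and over the first exon at right. The bottom row draws the first exon with its coding part in black. Both tall bars stand on the coding sequence, at 64 and 62 reads in Ad-Ets-1 cells, 57 and 22 in Ad-GFP cells and 18 and 10 in the input.

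Well read regions of this kind were few. Of the 180 regions with at least 20 reads in either precipitated library outside the major satellite repeat, 5 (2.78%) had at least 90% of their bases in coding sequence, and Irs1 supplied 2 of them. The others lay in Pif1, a DNA helicase gene, Kcna1, a potassium channel gene, and Tyr, the tyrosinase gene. Pif1 held 92 reads in Ad-Ets-1 cells, 68 in Ad-GFP cells and 36 in the input. Kcna1 held 16 reads in Ad-Ets-1 cells, 204 in Ad-GFP cells and 21 in the input. Tyr held 2 in Ad-Ets-1 cells, 20 in Ad-GFP cells and 4 in the input. Of the same 180 regions, 25 (13.9%) had a ratio whose interval lay above 1 like that of the Irs1 exon region, and this share is the background against which that ratio is read. The input was high over both Irs1 regions too, at 18 and 10 reads against at most 2 in any other region of the 9 genes. Counts per region do not tell reads of the genomic exon from reads of other DNA that carries Irs1 coding sequence. These sources cannot be told apart here, for the read counts, the folds over input or the ratio of 2.58 alike.

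Irs2, the second adaptor (minus strand of chromosome 8, 10984681 to 11008458), had 2 intronic regions by name. They held 1 read in Ad-Ets-1 cells, 2 in Ad-GFP cells and 1 in the input. Both lay outside the gene body. A region inside the Irs2 coding exon (chr8:11007053-11007395) had been assigned to a gene without a symbol and labelled its promoter. It held 5 reads in Ad-Ets-1 cells, 0 in Ad-GFP cells and 1 in the input, and all 343 of its bases are coding. A difference at Irs2 was not detectable at this depth.

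Akt1, the kinase at the centre of the pathway (minus strand of chromosome 12, 112653821 to 112674884), had 3 regions. They held 3 reads in Ad-Ets-1 cells, 4 in Ad-GFP cells and 0 in the input. Both of its promoter-labelled regions lay over 10 kb inside the gene, 1 called in each library. Akt2, the form most tied to insulin-driven glucose uptake (plus strand of chromosome 7, 27591552 to 27640826), had 8 regions, none of them labelled promoter. They held 5 reads in Ad-Ets-1 cells, 13 in Ad-GFP cells and 1 in the input. The best read was an exon region with 0 reads in Ad-Ets-1 cells and 4 in Ad-GFP cells (chr7:27632148-27632619). Neither kinase gene had a region of 5 reads.

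Tsc2, whose product tuberin restrains mTOR (minus strand of chromosome 17, 24595816 to 24632630), was the member with a listed peak across its own start. The region (chr17:24632437-24632726) runs from 96 bp before the gene start to 193 bp past it. It held 6 reads in Ad-Ets-1 cells, 0 in Ad-GFP cells and 0 in the input. That is 1.83 times the floor of 3 Ad-GFP reads, and the interval of the ratio reaches down to 0.379, so the difference lies within counting error. In the authors' deposited table its peak had a fold of 3.71 and a q of 0.0289 in Ad-Ets-1 cells. By fold it ranked 683rd in that list, a tied rank that it shared with the upstream Insr peak of the same fold and q. The region holds CCGGAAGT, one of the ETS words searched, at positions −5 to 2, with the first base of the gene as 0, and on the gene's strand. The 116 bases from its upstream end to 20 bases past the start are shown with this word in capitals.
Tsc2 start (chr17:24632611-24632726, minus strand): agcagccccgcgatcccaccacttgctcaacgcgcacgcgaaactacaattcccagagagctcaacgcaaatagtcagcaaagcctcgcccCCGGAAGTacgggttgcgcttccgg
The remaining 7 Tsc2 regions held at most 4 reads in any library. The whole gene held 14 reads in Ad-Ets-1 cells, 10 in Ad-GFP cells and 1 in the input.

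Foxo1, the FoxO factor best known from liver and β-cells (plus strand of chromosome 3, 52268336 to 52353221), had 1 region by name, in intergenic DNA 5629 bp upstream. It held 0 reads in Ad-Ets-1 cells, 3 in Ad-GFP cells and 2 in the input. Foxo3 (minus strand of chromosome 10, 42181841 to 42276755), a related factor of stress and survival responses, had 31 regions. They held 43 reads in Ad-Ets-1 cells, 51 in Ad-GFP cells and 3 in the input. Its promoter-labelled region upstream of the gene (chr10:42277809-42278057), 1054 to 1302 bp before the start, held 6 reads in Ad-Ets-1 cells, 1 in Ad-GFP cells and 0 in the input. The ratio was 5.50, with an interval of 0.221 to 144.3 that spans 1. Within introns, a region held 6 reads in Ad-Ets-1 cells, 0 in Ad-GFP cells and 1 in the input (chr10:42268717-42268965), and another held 0 in Ad-Ets-1 cells, 6 in Ad-GFP cells and 0 in the input (chr10:42239841-42240460). Single regions of Foxo3 thus leaned either way.

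Over all 9 genes, 15 of 150 regions (10.0%, exact Clopper-Pearson interval 5.71 to 16.0%) held at least 5 reads in either precipitated library. The share was 4.13% of all regions and 4.51% of regions with a gene name. The 15 belonged to Irs1 (2), Insr (4), Igf1r (4), Foxo3 (4) and Tsc2 (1), and without Irs1 there were 13, or 9.03% of 144. By the authors' RPM ratio, 10 of the 15 were at least 2-fold higher in Ad-Ets-1 cells, beside 44.7% of all regions that well read. A further 4 stood at 0.5 or below, beside 47.3%. Of the 15, 9 had 0 reads in one precipitated library. With 6 reads against 0 the interval runs from 0.379 upward, and with 0 against 6 it runs up to 2.22. The Irs1 exon region was the only one of the 15 whose interval left out 1.

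**Figure D3:**
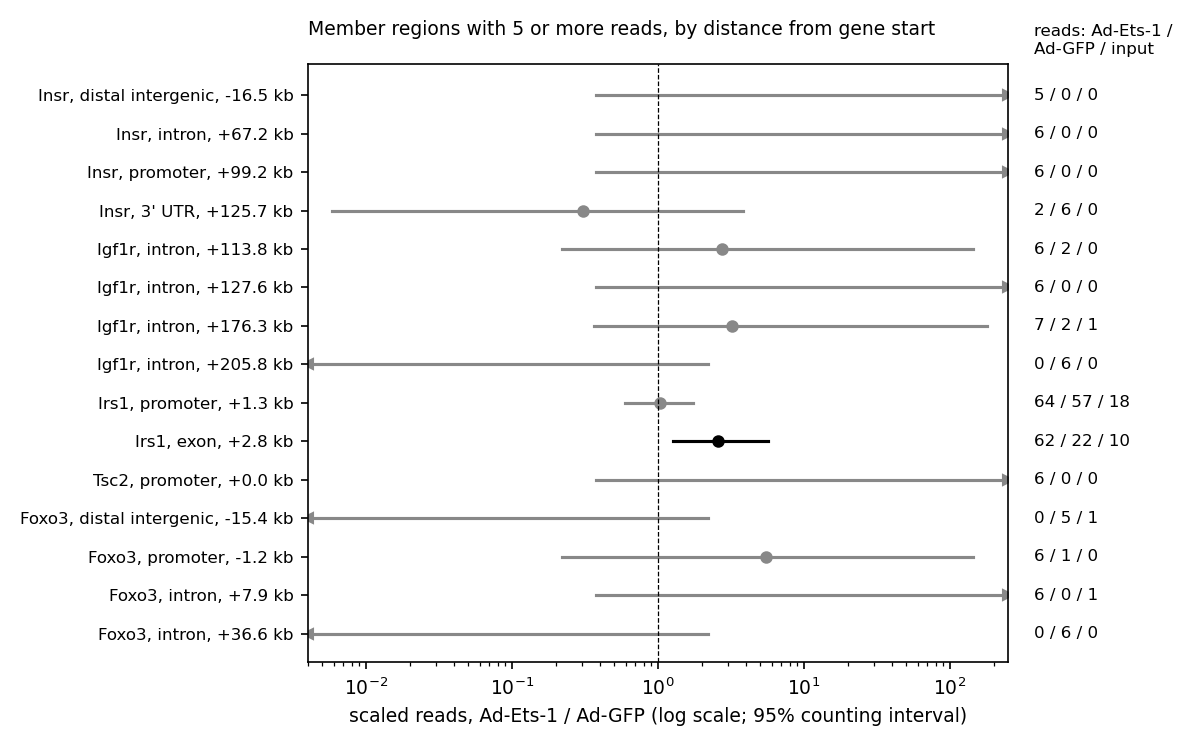
Ratio of scaled reads, Ad-Ets-1 over Ad-GFP (horizontal axis, log scale), with 95% counting intervals for the 15 regions with at least 5 reads, each named by gene, annotation and distance of its centre from the gene start, with reads in the 3 libraries at right. Points are left out where a library held 0 reads, arrows mark open intervals, and the Irs1 exon region, in black at 2.58, is the only one whose interval leaves out 1.

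Summed over the 150 regions, which cover 45129 bp, the Ad-Ets-1 to Ad-GFP ratio was 0.925 (0.734 to 1.14). Without Irs1, the other 8 genes held 181 reads in Ad-Ets-1 cells, 224 in Ad-GFP cells and 20 in the input over 42454 bp. The ratio then was 0.740 (0.566 to 0.978), with 4.26 reads per kb in Ad-Ets-1 cells and 5.28 in Ad-GFP cells. All named regions outside satellite had a ratio of 0.710, with 4.09 reads per kb in Ad-Ets-1 cells and 5.27 in Ad-GFP cells. These sums and densities run over regions called separately in each library, 47 in the Ad-Ets-1 list alone and 85 in the Ad-GFP list alone for the other 8 genes, so they move with what was called.

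By annotation class most of the 150 regions were intronic. Introns held 94 of them (62.7%), beside 34.1% of all regions and 47.4% of regions with a gene name. Intergenic DNA held 31 (20.7%), beside 52.6% of all regions and 33.0% of those with a gene name. Promoters held 14 (9.33%), beside 7.69% of all regions and 11.1% of those with a gene name. Exons held 6 and 3′ UTRs 5. The 150 regions all carry a gene name, so the shares of named regions are the closer background. Among these regions the promoter label reached up to 2 kb upstream of a start of any transcript, but only 1 kb downstream of one. An Akt2 region 1142 bp downstream of a start was labelled intron. Only 3 of the 14 promoter-labelled regions, those of Irs1, Tsc2 and Foxo3, lay within 2 kb of the gene's outermost start, and the other 11 lay over 10 kb inside. Over all protein-coding genes 48.3% of 23014 such regions lay within 2 kb of that start. A promoter label at Insr, Igf1r or Akt1 is therefore no peak at the main start of the gene.

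In Ad-Ets-1 cells, 6 of the 9 genes had a promoter-labelled peak, beside 37.7% of named genes. In Ad-GFP cells, 5 of 9 had one, beside 48.6%. Both libraries gave one at Igf1r, Irs1, Akt1, Tsc2 and Foxo3, and Ad-Ets-1 alone at Insr. Only at Irs1 did the promoter-labelled peaks of both lists overlap. At Igf1r, Akt1, Tsc2 and Foxo3 they lay at different places in each list. At a deposited q of at most 0.05 there remained Irs1 and Tsc2 in Ad-Ets-1 cells, beside 1.66% of named genes, and Irs1 in Ad-GFP cells, beside 0.75%. By peak rather than gene, 15 of the 63 Ad-Ets-1 peaks (23.8%) were overlapped by an Ad-GFP peak, beside 14.1% of all. Of the 103 Ad-GFP peaks, 16 (15.5%) were overlapped by an Ad-Ets-1 peak, beside 9.86% of all. Most peaks of these genes were thus called in 1 list alone, as were most peaks of both whole lists.

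Naming regions by the nearest gene start left part of the reads inside these genes under other names. The 9 gene bodies were overlapped by 161 regions, of which 116 carried the gene's own name, 40 went to genes without a symbol and 5 to Gm9747, a predicted gene inside Irs1. The best read of these 5 held 6 reads in Ad-Ets-1 cells, 2 in Ad-GFP cells and 0 in the input. Foxo1 lost the most: all 23 regions in its body were assigned to unnamed genes, 22 of them to ENSMUSG00000102844. These 23 held 21 reads in Ad-Ets-1 cells, 29 in Ad-GFP cells and 2 in the input, and none held more than 4 in a library. With them Foxo1 had 27.1 regions per 100 kb, the highest of the 9, against a single region by name. Insr lost 15 of 37, and both regions in the Irs2 body went elsewhere. Per 100 kb the other bodies held 8.41 (Irs2) to 23.5 (Insr) regions. The median of 10159 protein-coding genes of at least 20 kb was 17.5, with quartiles of 11.6 and 23.1, and 6 of the 9 genes lay between these quartiles. Among those genes 36.6% of regions in the bodies went to unnamed genes, and 383 genes lost all of theirs.

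**Figure D4:**
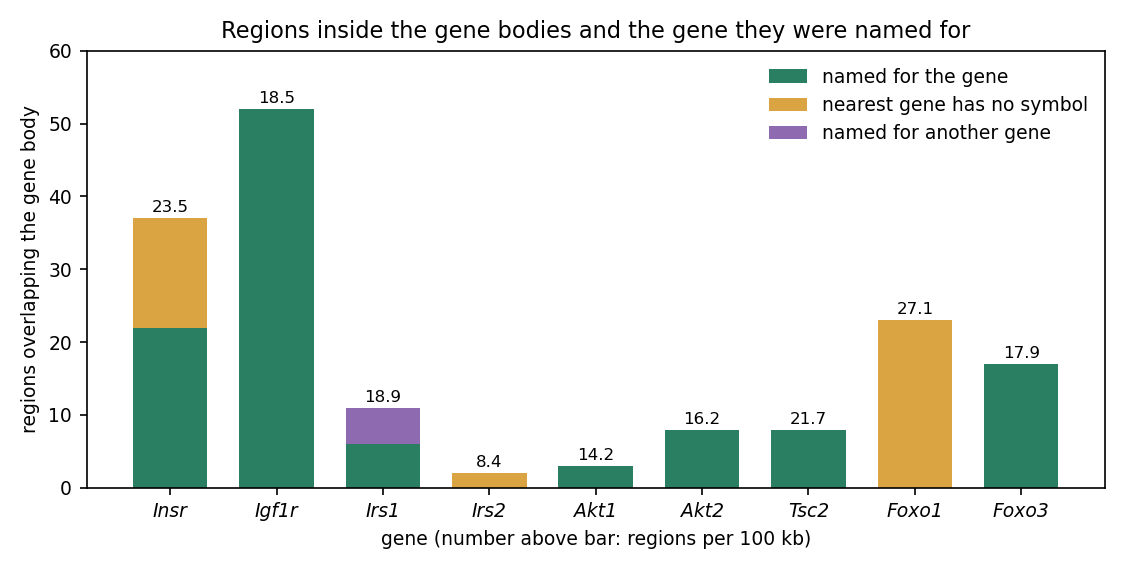
Number of listed regions that overlap each gene body (vertical axis) for the 9 genes (horizontal axis), split by the gene they were named for; the number above each bar is regions per 100 kb. The Foxo1 bar, with 23 regions, belongs wholly to genes without a symbol, while every region in the Igf1r bar carries the gene's own name.

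ETS words were searched on both strands of each region as CCGGAAGT or CAGGAAGT. They occurred in 6 of the 150 regions (4.0%), beside 1.89% of all regions and 1.99% of regions of like width. The 6 were the Tsc2 start, 3 intronic regions of Igf1r and 2 intergenic regions of Foxo3. The shorter core CGGAAG, which every CCGGAAGT contains, occurred in 10 (6.67%), beside 2.69% of all regions and 2.82% of regions of like width. Apart from the Tsc2 start, the regions with a word held at most 4 reads in any library. The words are shown in capitals in 30 bases of their own strand, since they mark where the preferred sequence lies within poorly read regions.
Igf1r intron, first (chr7:68064083-68064090, plus strand): aaaatgggagaCAGGAAGTagactttccaa
Igf1r intron, second (chr7:68131348-68131355, plus strand): cttccgagtgcCAGGAAGTcacgtctgaat
Igf1r intron, last (chr7:68136789-68136796, minus strand): gagagaaggcaCAGGAAGTcatgaaattag
Foxo3 intergenic, first (chr10:42161877-42161884, plus strand): gacaggaaaaaCAGGAAGTaatgagggaca
Foxo3 intergenic, second (chr10:42165926-42165933, minus strand): attaccaccacCAGGAAGTatacagctgga
In this order, the Igf1r regions held 1, 3 and 1 reads in Ad-Ets-1 cells and 4, 0 and 0 in Ad-GFP cells. Both Foxo3 regions held 0 reads in Ad-Ets-1 cells and 2 in Ad-GFP cells. Neither well read Irs1 region held a word. In the RefSeq promoters of GRCm38.p6, which run from 250 bases before to 50 after a start, 8 of the 9 genes were matched and Tsc2 alone had a word. Counted in the same way, 7.97% of all genes had one. Counted per region rather than per gene, and over regions of varied width, 2.58% of promoter-labelled regions at large held one.

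The wider pathway was described from a list of 47 genes that includes the 9, of which 44 were named as a nearest gene. A promoter-labelled peak was present for 24 (54.5%) in Ad-Ets-1 cells and 28 (63.6%) in Ad-GFP cells. For 20 genes both lists held one, whether or not the peaks overlapped. Of all named genes, 37.7% had one in Ad-Ets-1 cells and 48.6% in Ad-GFP cells. Receptors had one for 3 of 4 genes in Ad-Ets-1 cells and 2 in Ad-GFP cells. Adaptors had 7 of 9 in Ad-Ets-1 cells and 5 of 9 in Ad-GFP cells. Lipid kinases and phosphatases had 4 in Ad-Ets-1 cells and 6 in Ad-GFP cells of 7. The protein kinases had 2 in Ad-Ets-1 cells and 5 in Ad-GFP cells of 7, and the mTOR branch 6 of 9 with either. FoxO factors and their targets had 2 in Ad-Ets-1 cells and 4 in Ad-GFP cells of 8. At a q of at most 0.05 the list held Irs1, Tsc2 and Grb10, an adaptor that inhibits the receptors, in Ad-Ets-1 cells, and Irs1 in Ad-GFP cells, beside 1.66% and 0.75% of named genes in the Ad-Ets-1 and Ad-GFP lists. These shares are descriptions, and the order of the libraries differed between groups of the list.

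Of the pathway genes outside the 9, Tsc1, the partner of Tsc2, had a region across its start (chr2:28641073-28641421) with 8 reads in Ad-Ets-1 cells, 0 in Ad-GFP cells and 1 in the input, or 2.44 times the floor, and the interval reaches down to 0.605. Of the 35 other genes with regions, 1 had a region of 20 or more reads. This was G6pc, the catalytic subunit of glucose-6-phosphatase and a FoxO target, chosen after its values were seen. Its intronic region (chr11:101369117-101369354) held 28 reads in Ad-Ets-1 cells, 40 in Ad-GFP cells and 21 in the input, a ratio of 0.641 (0.300 to 1.33). Over input it was 2.71-fold in Ad-Ets-1 cells and 4.22-fold in Ad-GFP cells.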

How the data were processed

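The 3 libraries (chromatin precipitated for Ets-1 from Min6 cells with Ad-Ets-1 or Ad-GFP, and an input) were analysed from 2 peak lists and a comparison table. The submitters' processing notes name FastQC, Trimmomatic, BWA 0.7.12, MACS2 2.1.0 and build mm10, with peak calling settings not given in the sources used here. For each peak the authors deposited its fold enrichment (a ratio), p-value and q-value as −log10 and a score, which were used within a list only. The comparison table, as the authors deposited it, holds read counts, RPM values (the count plus 1, scaled to the library), a ratio of the RPM values of each precipitated library over the input, and the log2 of the Ad-Ets-1 over Ad-GFP RPM ratio. Annotation classes, nearest genes and distances are the authors'.

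Library totals were recovered from counts and RPM. Even counts made up 72.0% of nonzero counts for Ad-Ets-1 and 74.5% for Ad-GFP, so intervals were computed on fragments of 2 reads, rounded up. Input counts were treated in the same way, although even counts made up only 19.0% of them and do not point to pairs of reads. No ratio is given where both libraries held 3 or fewer reads. Gene bodies and coding parts came from GENCODE M21 on GRCm38.p6, and no region lay beyond a chromosome end. Satellite regions, 25 in number, hold an 18-base major satellite word. Members and gene lists were chosen with earlier results of these data known. All 9 genes are named whatever they showed, and other pathway genes where a promoter held at least 8 reads. An item that this rule selects is not reported here. The interval code was tested on simulated data. Alternatives changed read minimums, library totals, peak thresholds, overlap rules and words. Work was done in Python 3.11.15 with numpy 2.4.6, scipy 1.17.1, pandas 2.3.3, matplotlib 3.10.9 and pysam 0.24.0.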

Additional observations from a re-analysis of the deposited data

How the results depend on the processing

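Of 43 alternatives to 15 results, 21 left the value within its tolerance and 22 moved it beyond. The tolerance was 1.5 times for a count of regions, peaks or genes, and the 95% counting interval of the reported value for a ratio or share. A minimum of 3 reads in either precipitated library left 42 of the 150 regions (28.0%), a minimum of 5 left 15, and a minimum of 10 left 1.33%, which are the Irs1 regions over coding sequence. The summed Ad-Ets-1 to Ad-GFP ratio of 0.925 became 1.29 over regions called in both libraries and 1.28 over promoter-labelled regions, both of which include Irs1. Without Irs1, an alternative chosen after seeing the data, it was 0.740. Members with a promoter-labelled peak in Ad-Ets-1 cells numbered 2 at a q of at most 0.05 and 2 at a fold of at least 3, and in Ad-GFP cells 1 under either threshold. Pathway genes with one in Ad-Ets-1 cells numbered 3 at that q and 4 at that fold, and in Ad-GFP cells 1 under either. Ad-Ets-1 peaks overlapped by Ad-GFP peaks numbered 6 with reciprocal overlap, 7 with summits within 100 bp and 2 at a fold of at least 3. Ad-GFP peaks overlapped by Ad-Ets-1 peaks numbered 7 with reciprocal overlap, 7 with summits within 100 bp and 3 at that fold. The share of regions higher in Ad-Ets-1 cells by the authors' log2 value was 36.0% over all 150, beside 39.6% of all regions. Over member regions with at least 5 reads it was 73.3%, beside 49.4% of all regions that well read. With CGGAAG in place of the ETS words, 10 regions held it. The Irs1 promoter-labelled ratio of 1.03 was 1.46 (0.956 to 2.20) with the gene's regions within 1 kb summed. The Irs1 exon ratio of 2.58, itself chosen after seeing the data, was 2.51 with reads plus 1 and 2.59 with library totals without satellite, both added after seeing the data. Depth limits all regions outside Irs1, none of which exceeded 7 reads. No paired analysis was possible because there is a single library per group. The cause of the changes was not tested.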
